A study of Mus musculus with 32 samples.

Results

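Regulatory T cells (Treg) were compared with CD4 T cells taken from the same kind of inflamed host after transplantation across a major mismatch, which causes acute graft-versus-host disease in mice. The comparison used 7 of the 31 RNA libraries of the series, chosen by their labels: 3 Treg libraries and 4 CD4 libraries of recipients that had been given Treg. Donor T cells and Treg came from C57Bl6 mice and recipients were Balb/c, a pairing mismatched at the major histocompatibility genes. The Treg were given on day 0. Both populations were sorted from spleen and lymph nodes at day 6, by the sample titles, whereas the series text gives 8 days. The CD4 cells are described as conventional T cells of the donor. Library names carry a prefix, JL019 or JL027, and at day 6 in most cases a number, which the labels do not explain. The CD4 libraries are JL019-1, JL019-2, JL027-1 and JL027-2, and the Treg libraries are JL019-1, JL019-2 and JL027, the last with no number. Whether a Treg library holds cells of 1 or of several recipients is not given in the sources used here, nor are the sort markers, the sex of the donors or the conditioning of the hosts. The p-values therefore measure only the spread between libraries, which may be technical. The test of each gene took that spread within groups over all 31 RNA libraries, not from these 7 alone. Further groups served as references: Treg and CD4 cells before transfer (day 0, 2 libraries each), and 4 CD4 libraries of allogeneic recipients that got no Treg.

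Treg restrain other T cells and are defined by the transcription factor Foxp3, which raises the high-affinity interleukin-2 (IL-2) receptor and inhibitory molecules and represses effector cytokines, IL-2 among them. Treg make little IL-2 and depend on what neighbouring T cells secrete, and the receptor signals through STAT5. In graft-versus-host disease donor T cells attack the host, and Treg given at transplantation are studied as a way to limit that attack. Values are counts normalised between libraries by the authors. Differences are Treg minus CD4 on the log2(value + 1) scale, on which the change of a gene with low values is understated, and a gene is called when limma's Benjamini-Hochberg adjusted p over all genes is under 0.05.

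The labels were checked against lineage genes. Cd4 (ENSMUSG00000023274), the coreceptor of both populations, had normalised counts of 14512, 14525 and 16083 in the Treg libraries and 9108, 8722, 17587 and 9369.5 in the CD4 libraries, in the order given above. Cd8a, the coreceptor of the other T-cell lineage, lay between 43.4 and 55.7 in Treg and between 19.4 and 64.4 in CD4 libraries, and neither gene was called. Cd8b1, the other CD8 chain, lay between 607 and 731 in Treg and between 386 and 801 in CD4 libraries and was not called. Crtam, also listed as a marker of CD8 cells, was called lower in Treg (-4.05). The mean normalised count per gene was 1532 to 1612 in the Treg and 1608 to 2118 in the CD4 libraries, and the RNA depth is unknown. Between libraries, r (Pearson, log2 values) was taken over genes, which are not independent, and was 0.971 to 0.974 within the Treg libraries, 0.940 to 0.965 within the CD4 libraries and 0.904 to 0.949 between the populations. CD4 replicate JL027-1 stood apart from the other 3 CD4 libraries. Counts of list members called without it are given beside the lists where they differ.

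Treg and CD4 cells of Treg-treated recipients differed in 5016 of 16741 genes (30.0% of those tested), of which 2319 were higher in Treg (13.9%) and 2697 lower (16.1%). Of the called genes, 3312 differed by more than 2-fold. The 3 Treg libraries lay outside the range of the 4 CD4 libraries in 6113 genes (36.5%), 2864 of them higher (17.1%) and 3249 lower (19.4%). The median difference over all genes was 0.14. With libraries centred on their medians the median was -0.08 and the calls became 1648 higher and 3387 lower, so the balance of directions depends on the scaling. Leaving out Treg replicate JL019-1 lowered the count of calls to 3119, and leaving out CD4 replicate JL027-1 raised it to 6377. Within JL019 alone 3677 genes were called, and within JL027 alone, with 1 Treg library, 211.

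**Figure D1:**
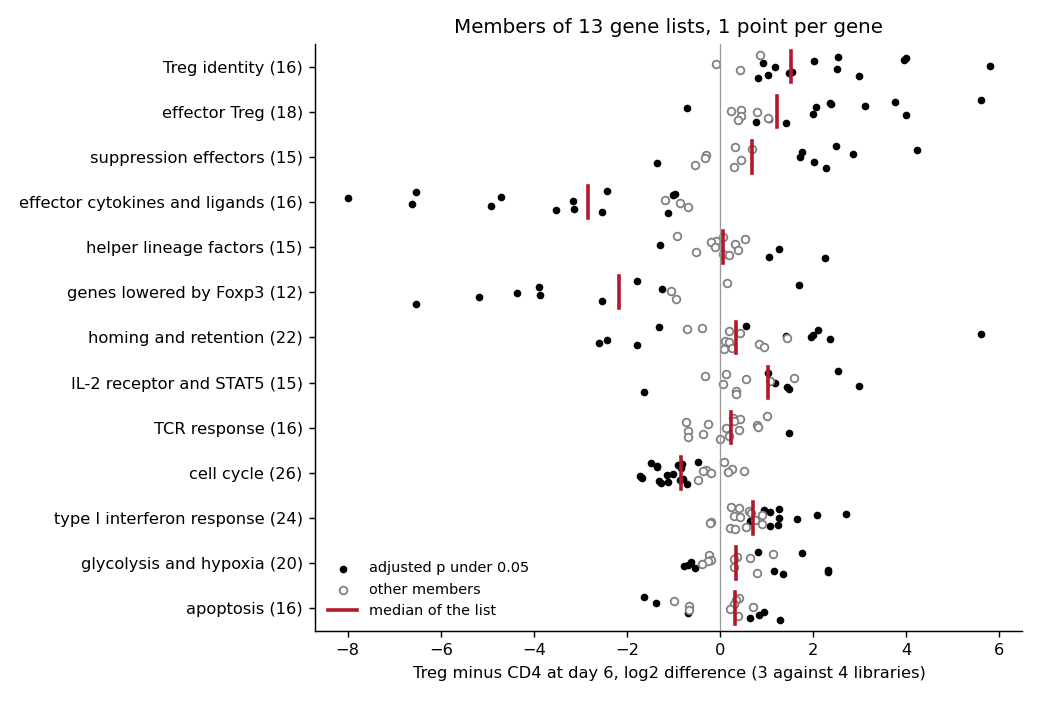
Log2 difference between Treg and CD4 cells at day 6 for each member of 13 gene lists (horizontal axis), 1 row per list with the number of members in the table. Filled points passed limma's adjusted p of 0.05, open points did not, and the red bar is the list's median. Cytokines and genes lowered by Foxp3 lie to the left, and Treg identity genes to the right.

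Of the 16 Treg identity genes, 13 were higher in Treg and none was lower, with a median difference of 1.52 against 0.14 over all genes. Foxp3, the defining member, was 1 of the 3 that were not called. Foxp3 (ENSMUSG00000039521) had normalised counts of 285, 265 and 293 in Treg and 172, 127, 147 and 178 in CD4 cells. The groups did not overlap, but the difference of 0.86 (SE 0.65, limma adjusted p 0.33) did not pass the test. That SE took the spread within groups over all RNA libraries of the series, not from the libraries compared here alone. In the libraries compared, the SD of the Foxp3 counts was 14.7 in Treg and 23.5 in CD4 cells. The failed test therefore does not show that Foxp3 varied widely within these groups. At day 0 Foxp3 ran against the labels, with 198 and 442 in the libraries labelled Treg and 1145 and 978 in those labelled CD4, a difference of -1.84 (SE 0.86, limma adjusted p 0.309). Of the other members, 11 were called higher in the day 0 Treg libraries.

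Lrrc32 (ENSMUSG00000090958), which encodes GARP, the surface anchor of latent TGF-beta, had 6326, 4213 and 3612 in Treg and 91.5, 75.1, 145 and 42.8 in CD4 cells. Every Treg library was far above every CD4 library, with a difference of 5.81 (SE 0.72, limma adjusted p 1.97e-06). Ikzf2 (ENSMUSG00000025997) encodes Helios, a transcription factor typical of thymus-derived Treg, and had 14862, 14335 and 11615 in Treg and 760.3, 608, 1132 and 1009.7 in CD4 cells. Its difference was 3.99 (SE 0.36, limma adjusted p 7.37e-09), and its relative Ikzf4, which encodes Eos, was higher by 3.96. The inhibitory receptor gene Ctla4 had 64681, 61226 and 30287 in Treg and 17334, 18511, 7978 and 8478 in CD4 cells, a difference of 2.02 (SE 0.44, limma adjusted p 0.00138). Treg replicate JL027 and both JL027 CD4 libraries were lower for Ctla4 than the JL019 libraries of their population, and the difference was in the same direction in both prefixes. Izumo1r, which encodes folate receptor 4, was higher by 1.18, Tnfrsf18, which encodes GITR, by 0.92, Swap70 by 1.54 and Gpr83 by 2.51. Gpr83 was low at day 6, at 71.1 to 96 in Treg and 10.6 to 18.7 in CD4 cells, against 3632 and 3742 and 1299 and 1101 at day 0. Plagl1 (1.49, limma adjusted p 0.0462), Il2rb (1.03, limma adjusted p 0.0461) and Cd5 (0.82, limma adjusted p 0.0434) were also called. These 3 calls ended when the gene-length trend was removed. Leaving out any 1 of the 7 libraries ended those of Plagl1 and Cd5, and any but CD4 replicate JL027-1 that of Il2rb. The call of Tnfrsf18 ended with libraries centred on medians, and without CD4 replicate JL027-1, Treg replicate JL019-1 or Treg replicate JL019-2. Without CD4 replicate JL027-1 the list held 10 higher and none lower. Capg, an actin-capping protein gene, differed by 0.42 (limma adjusted p 0.331) and overlapped between groups, whereas at day 0 it was called (1.97, limma adjusted p 0.00508).

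Nrp1 (ENSMUSG00000025810), which encodes neuropilin-1, a semaphorin and VEGF coreceptor that marks thymic Treg at rest, was the identity gene whose change between days passed the test. At day 0 it had 7417 and 7167 in Treg and 1354 and 1221 in CD4 cells, a difference of 2.50 (SE 0.26, limma adjusted p 5.35e-07). At day 6 it had 2409, 1973 and 2065 in Treg and 2173, 1936, 2926 and 2165 in CD4 cells, and the groups overlapped. The test of the change between days gave -2.59 (SE 0.33, limma adjusted p 2.90e-05). With the length trend removed, Nrp1 was called lower in Treg at day 6.

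**Figure D2:**
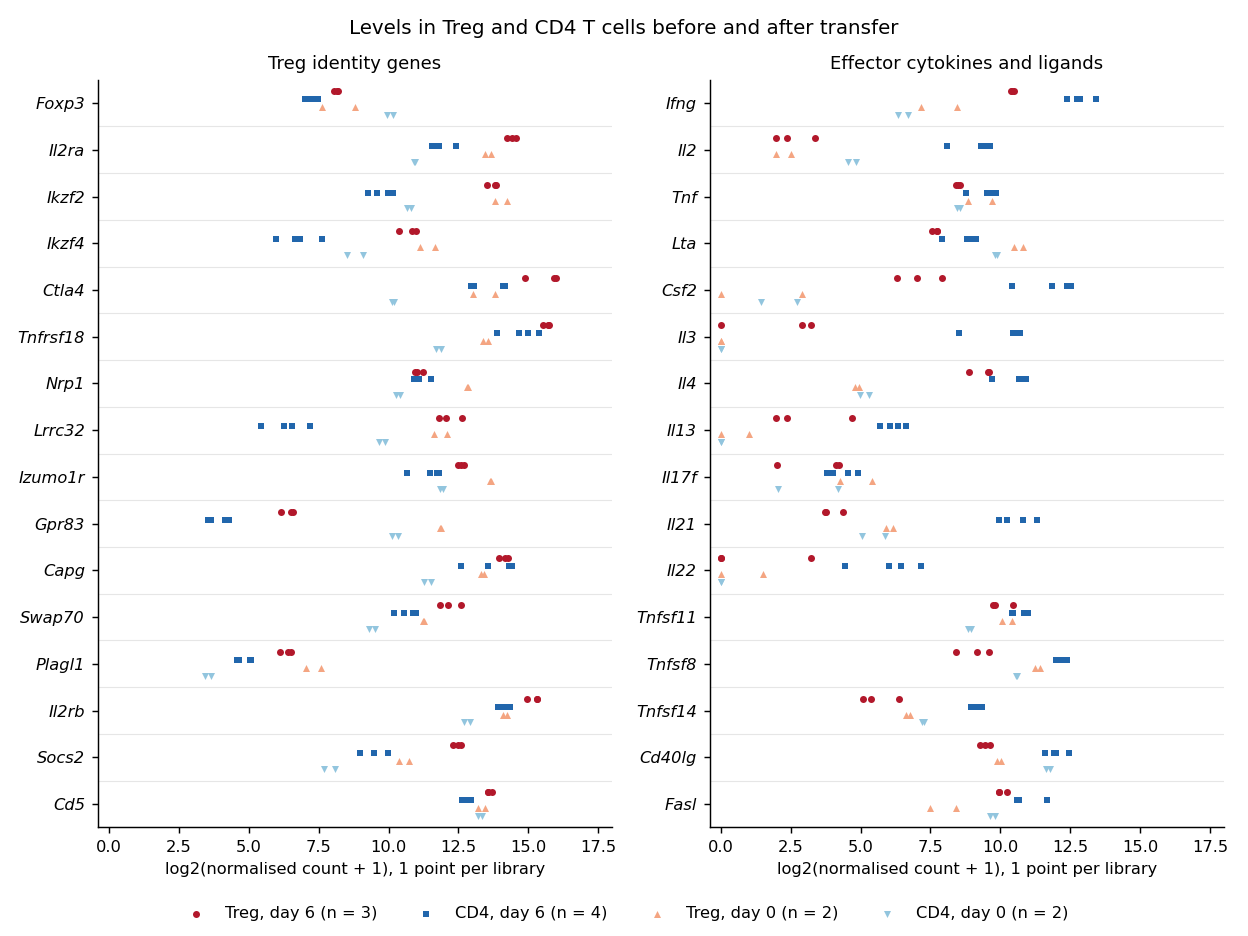
Log2(normalised count + 1) in each library (horizontal axis) of the 16 Treg identity genes (left) and 16 effector cytokines and ligands (right), for Treg and CD4 cells of Treg-treated recipients at day 6 and for both populations at day 0. Red circles lie to the right of blue squares for 14 identity genes, Foxp3 among them, and to the left for 14 cytokine and ligand genes.

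Genes of the IL-2 receptor and STAT5 pathway were higher in Treg in 6 of 15 cases and lower in 1, with a median of 1.03. Il2ra (ENSMUSG00000026770), the alpha chain (CD25) that gives the receptor its high affinity, had 24209, 21787 and 19300.4 in Treg and 3356, 3556, 5486 and 3026 in CD4 cells, a difference of 2.53 (SE 0.35, limma adjusted p 9.69e-06). The beta chain Il2rb differed by 1.03 and the common gamma chain Il2rg by 0.12 (limma adjusted p 0.717). Socs2 (ENSMUSG00000020027), a feedback inhibitor induced by STAT5, had 5740.3, 6160.4 and 5114 in Treg and 720.0, 1003, 499 and 709.7 in CD4 cells, a difference of 2.99 (SE 0.25, limma adjusted p 2.24e-09). Cish, another STAT5 target, was higher by 1.17, the kinase gene Pim1 by 1.48 and Socs3 by 1.44. The call of Cish ended without Treg replicate JL019-1 or JL027, and that of Socs3 without either of these or either JL019 library of CD4 cells. The lower one was Bcl2, an inhibitor of apoptosis, with 1089, 798 and 834 in Treg and 2642, 2993, 2727 and 2758 in CD4 cells and a difference of -1.63 (SE 0.24, limma adjusted p 2.41e-05). Stat5a (0.55), Stat5b (1.07), Jak1 (-0.32) and Jak3 (1.58), which carry the receptor's signal, did not pass the test. This rested on CD4 replicate JL027-1 for 3 of them: without it Stat5b (1.25, limma adjusted p 0.0341) and Jak3 (1.93, limma adjusted p 0.0208) were higher and Jak1 (-0.48, limma adjusted p 0.0459) was lower, and the list held 8 higher and 2 lower.

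Genes of activated, tissue-type Treg followed. Of 18 such genes, 11 were higher and 1 was lower, with a median of 1.23. Itgae (ENSMUSG00000005947), the integrin alpha chain CD103 that binds E-cadherin on epithelium, had 6949.6, 6189.8 and 5515 in Treg and 99.2, 101, 213 and 120.1 in CD4 cells. This was the largest difference of the list, 5.60 (SE 0.37, limma adjusted p 3.42e-11). Klrg1, an inhibitory lectin receptor of short-lived effector cells, had 19106, 18881 and 12463 in Treg and 1796, 1509, 678 and 1193 in CD4 cells, a difference of 3.76 (SE 0.38, limma adjusted p 7.30e-08). Prdm1, which encodes the repressor Blimp-1, was higher by 2.06, Tnfrsf8 (CD30) by 4.01, Areg, the tissue-repair factor amphiregulin, by 3.12, Il1rl1, the IL-33 receptor, by 2.39, the chemokine receptor gene Ccr8 by 2.35 and Tnfrsf9 (4-1BB) by 2.00. Batf, a factor of the AP-1 family that was 1.23 higher in Treg at day 0, was -0.71 at day 6 (limma adjusted p 0.0354), with 9668, 9722 and 9063 in Treg and 18347, 21689.7, 9640.0 and 14979 in CD4 cells. The Batf groups overlapped, and the call ended in 6 of the 7 fits that left out 1 library, all but the one without CD4 replicate JL027-1. Without that library the list held 10 higher and 1 lower.

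Of 15 effector molecules of suppression in the table, 7 were higher and 1 was lower, with a median of 0.69. Itgb8, which releases active TGF-beta from its latent form, had 557, 455 and 302 in Treg and 17.6, 14.9, 28.1 and 29.4 in CD4 cells, a difference of 4.23 (SE 0.66, limma adjusted p 4.55e-05). Nt5e (CD73) and Entpd1 (CD39), the ectoenzymes that turn extracellular ATP into adenosine, were higher by 2.86 and 1.77. Il10, an inhibitory cytokine, had 1716, 2021 and 1558 in Treg and 312, 319, 236 and 405 in CD4 cells, a difference of 2.49 (SE 0.47, limma adjusted p 3.60e-04). The ligand Cd274 (PD-L1) was higher by 2.28, Fgl2 by 2.03 and the cytotoxic protease Gzmb by 1.71, whereas Prf1, which encodes perforin, differed by -0.32 (limma adjusted p 0.401). Lgals1, which encodes galectin-1, was the lower one, with 33977, 44201 and 42442 in Treg and 132293, 135785, 59062 and 100134 in CD4 cells and a difference of -1.35 (SE 0.29, limma adjusted p 0.00143). Gzma (-0.31), Ebi3 (0.33), Tgfb1 (0.69), Lag3 (0.46), Pdcd1 (-0.54) and Havcr2 (0.30) did not pass the test. A gene lower in a bulk library may mean fewer cells that express it or less RNA per cell, which these data cannot tell apart.

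Effector cytokines and ligands were lower in Treg. Of the 16 in the table, 13 passed the test, all lower, with a median of -2.84, the farthest from 0 of the 13 lists. Il2 (ENSMUSG00000027720), the growth factor that CD4 cells make on activation, had 2.93, 9.47 and 4.13 in Treg and 678, 794, 269 and 632 in CD4 cells. The lowest CD4 library was far above the highest Treg library, with a difference of -6.53 (SE 0.57, limma adjusted p 4.90e-09). Il21 (ENSMUSG00000027718), a cytokine of helper cells, had 12.3, 12.6 and 19.8 in Treg and 1195, 987, 2517 and 1812 in CD4 cells, a difference of -6.61 (SE 0.60, limma adjusted p 9.77e-09). Il3, a growth factor of myeloid cells, had 0, 8.35 and 6.51 in Treg and 1475, 1402, 365 and 1658 in CD4 cells, a difference of -8.00 (SE 0.78, limma adjusted p 3.60e-08). For these 3 transcripts no Treg library exceeded 19.8, and no CD4 library was below 269. Csf2, which encodes GM-CSF, an activator of myeloid cells, had 77, 129.6 and 240.4 in Treg and 5329.8, 5832, 1356 and 3646 in CD4 cells, a difference of -4.71 (SE 0.57, limma adjusted p 1.19e-06). Ifng, the main cytokine of type 1 helper cells, had 1328, 1438 and 1349 in Treg and 7395, 11048, 5285 and 6888 in CD4 cells, a difference of -2.43 (SE 0.32, limma adjusted p 4.57e-06). For Il2, Il3, Csf2 and Ifng the lowest CD4 value was that of replicate JL027-1, and its Il21 value was the highest. Cd40lg, which licenses antigen-presenting cells, was -2.54 and Tnfsf14 (LIGHT) -3.52. Il4 (-1.18), Il17f (-0.87) and Tnfsf11 (-0.69) did not pass the test. The groups did not overlap for Il4, which was called lower without CD4 replicate JL027-1 (-1.46, limma adjusted p 0.0173), making 14 lower. Against CD4 cells of allogeneic recipients the sign of Il4 turned (1.26, not called), with 201 to 369 in those cells.

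The 5 cytokine genes with differences below -4 in Treg were Il3, Il21, Il2, Il22 (-4.93, limma adjusted p 0.000353) and Csf2. Il22, an epithelial-acting cytokine, had 0, 8.43 and 0 in Treg and 63.4, 141, 20.7 and 85.4 in CD4 cells. Of these 5, Il2 and Il21, and Il3 and Csf2, sit in pairs on the chromosome. Il2 and Il21 are neighbours whose starts lie 107 kb apart on chromosome 3, and Il3 and Csf2 lie 17.4 kb apart on chromosome 11, all on the minus strand. Their promoters are shown because NFAT, a factor activated by T-cell receptor signals that binds with Foxp3 or with AP-1, is known to control Il2. The 250 bases before each start are from RefSeq, build GRCm38, minus strand, 5′ to 3′: Il2 at chr3:37125955-37126204, Il21 at chr3:37232637-37232886, Il3 at chr11:54267280-54267529 and Csf2 at chr11:54249900-54250149. Capitals mark matches to the NFAT-type letters TTTCCA on either strand.
Il2: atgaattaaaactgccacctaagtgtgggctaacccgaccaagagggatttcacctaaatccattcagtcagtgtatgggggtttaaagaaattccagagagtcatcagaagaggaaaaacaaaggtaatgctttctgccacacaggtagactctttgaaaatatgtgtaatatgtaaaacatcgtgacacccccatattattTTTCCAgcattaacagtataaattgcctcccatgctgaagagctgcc
Il21: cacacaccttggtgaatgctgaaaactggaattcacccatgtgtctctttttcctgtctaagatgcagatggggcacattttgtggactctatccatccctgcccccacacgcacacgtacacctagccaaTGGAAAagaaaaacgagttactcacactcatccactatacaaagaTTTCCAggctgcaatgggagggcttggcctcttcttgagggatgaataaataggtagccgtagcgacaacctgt
Il3: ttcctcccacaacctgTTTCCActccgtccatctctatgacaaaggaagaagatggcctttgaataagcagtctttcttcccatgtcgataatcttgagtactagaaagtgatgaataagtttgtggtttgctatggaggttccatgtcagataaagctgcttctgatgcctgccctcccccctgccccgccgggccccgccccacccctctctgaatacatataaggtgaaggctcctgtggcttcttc
Csf2: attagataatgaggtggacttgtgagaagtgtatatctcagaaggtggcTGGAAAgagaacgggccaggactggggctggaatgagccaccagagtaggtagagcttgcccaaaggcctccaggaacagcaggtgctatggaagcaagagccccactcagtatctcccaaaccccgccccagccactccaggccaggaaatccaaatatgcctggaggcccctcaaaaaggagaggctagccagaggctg
The match of Il2 begins 47 bases before the start, those of Il21 119 and 74 bases, that of Il3 234 bases and that of Csf2 201 bases. All 4 windows hold the letters, and so does that of Il22, which is not shown. Over the cytokine list 10 of the 15 genes with a promoter in the table hold them, as do 18.6% of the 32851 promoter windows of this length. Il4 and Il17f, which were not called, hold them, and Ifng, Lta, Tnfsf8 and Fasl, called lower, do not. The letters also occur before genes called higher in Treg, among them Ctla4, Izumo1r, Swap70, Ccr2 and Pim1. None of the 4 windows shown holds an AP-1-type TGANTCA (6.75% of windows), a STAT-type TTCNNNGAA (7.02%) or a forkhead-type TGTTTAC (3.17%). Both strands were searched, with no overlap between the matches. A match describes letters and is not a measured binding site. Variants of these letters were not searched, so a window without a match may still hold them.

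Genes known to be lowered by Foxp3 were mostly lower, 8 of 12, with 1 higher and a median of -2.16. The list shares Il2 and Cd40lg with the cytokines. Without CD4 replicate JL027-1 it held 7 lower and 1 higher. Dapl1, a gene of naive and memory-like T cells, had 12.7, 16.4 and 6.37 in Treg and 695, 476, 209 and 534 in CD4 cells, a difference of -5.19 (SE 0.37, limma adjusted p 1.17e-10). Id3, an inhibitor of E-protein transcription factors, had 91.8, 63.7 and 114 in Treg and 1482, 2004, 1259 and 2905 in CD4 cells, a difference of -4.36 (SE 0.30, limma adjusted p 5.09e-11). Tcf7, which encodes TCF-1, a factor of stem-like T cells, had 311, 261 and 250.1 in Treg and 2825, 3833, 5670.4 and 4422 in CD4 cells, a difference of -3.89 (SE 0.49, limma adjusted p 2.77e-06). Its partner Lef1 was -1.24 and St8sia1, a ganglioside sialyltransferase, -3.88. The higher one was Il7r, the IL-7 receptor chain that is usually low on Treg, with 25490.0, 26048 and 17530.3 in Treg and 9231, 9305, 4714 and 5981 in CD4 cells and a difference of 1.69 (SE 0.39, limma adjusted p 0.00225). At day 0 Il7r had 5266 and 3243 in Treg and 8523 and 8355 in CD4 cells (-1.03, limma adjusted p 0.348), and the change between days was 2.72 (SE 0.64, limma adjusted p 0.0121).

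Of the 15 helper lineage factors 3 were higher and 1 was lower, a share near the 30.0% of all genes called, with a median of 0.06. Il4ra, the IL-4 receptor chain, was higher by 2.25 and Gata3, a factor of type 2 helper cells and Treg, by 1.05, and Il18r1, a receptor chain of type 1 cells, was -1.28 (limma adjusted p 4.38e-04). The call of Gata3 ended with the length trend removed and in 6 of the 7 fits that left out 1 library, all but the one without CD4 replicate JL019-2. Without CD4 replicate JL027-1 the list held 1 higher and 1 lower. Tbx21, which encodes T-bet, was -0.92 (limma adjusted p 0.078) with no overlap of the groups. Homing genes moved both ways, with 7 of 22 higher, 4 lower (5 without CD4 replicate JL027-1) and a median of 0.34. Over all genes 13.9% were higher and 16.1% lower, and the count of lower homing genes is near that share. Ccr9, the receptor for the small-intestinal chemokine CCL25, had 14354, 19234 and 19081 in Treg and 3271, 3243, 7569 and 3408 in CD4 cells, a difference of 2.10 (SE 0.33, limma adjusted p 5.99e-05). The inflammatory chemokine receptor gene Ccr2 was higher by 1.99. Cxcr6, a receptor of liver-homing and tissue-resident T cells, had 4293, 6171 and 5059 in Treg and 36859, 34908, 28763 and 25459 in CD4 cells, a difference of -2.61 (SE 0.22, limma adjusted p 1.90e-09). Itgb1, the integrin beta-1 chain, was -1.79 and Ccr7, the lymph node homing receptor, -1.32. Ccr7 had 1187, 1127 and 259.9 in Treg and 1684, 2053, 1531 and 1788 in CD4 cells. Its difference was -0.60 without Treg replicate JL027 (limma adjusted p 0.261), and the call also ended without CD4 replicate JL019-2.

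Cell cycle genes were lower in Treg, 18 of 26, with none higher and a median of -0.85. Tyms, an enzyme of thymidylate synthesis, had 2692, 2932 and 2823 in Treg and 9707, 11445, 6721 and 9630.1 in CD4 cells, a difference of -1.71 (SE 0.28, limma adjusted p 7.13e-05). The cyclin genes Ccnb2 and Ccne1 were -1.36 (limma adjusted p 4.55e-05) and -1.35 (limma adjusted p 1.18e-06). Mki67 and the 6 Mcm genes of replication licensing in the list did not pass the test, at 0.09 for Mki67. Without CD4 replicate JL027-1, 16 members were lower and 1 was higher.

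Genes induced by type I interferon were higher in 10 of 24 cases and lower in none, with a median of 0.71. Oas2, an antiviral RNA sensor, had 940.2, 783 and 671 in Treg and 83.5, 76.9, 272 and 117 in CD4 cells, a difference of 2.71 (SE 0.60, limma adjusted p 0.00163). Ifit1, which binds viral RNA, had 3983, 4593 and 4024 in Treg and 1220.0, 1265, 2874 and 2069 in CD4 cells, a difference of 1.27 (SE 0.28, limma adjusted p 0.00159). CD4 replicate JL027-1 had the highest CD4 value of both genes. Without it 12 members were higher, and the median was 0.96.

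Of 20 glycolysis and hypoxia genes 6 were higher and 4 lower, where 13.9% of all genes were higher and 16.1% lower. The count of lower members is thus near the share of all genes. The 4 lower ones, Gapdh, Pgam1, Eno1 and Ldha, encode enzymes of the lower part of the pathway. Eno1 had 42897, 38413 and 38152 in Treg and 79626, 75436, 57256 and 62157 in CD4 cells, a difference of -0.77 (SE 0.18, limma adjusted p 0.00196). The higher ones encode transporters and regulators: the lactate exporter Slc16a3 was higher by 2.31, the glucose transporter Slc2a3 by 1.76, and Bnip3, a hypoxia-induced gene of mitochondrial turnover, by 2.33. The list's median was 0.33, and without CD4 replicate JL027-1 it held 7 higher and 4 lower. The call of Pgam1 ended in 5 and that of Ldha in 3 of the 7 fits that left out 1 library, each of the 3 Treg libraries among them. The call of Gapdh ended in 6 of these 7 fits, all but the one without CD4 replicate JL027-1. Quantile normalisation ended the calls of Gapdh, Pgam1, Eno1 (-0.33, limma adjusted p 0.198) and Ldha, and with the length trend removed Eno1 and Ldha were the 2 members called lower. Early genes of the T-cell receptor response differed in 1 of 16 cases, against 30.0% of all genes. The 1 called was the phosphatase gene Dusp5 (1.48, limma adjusted p 0.0193). That call ended without CD4 replicate JL027-2, Treg replicate JL019-1 or Treg replicate JL019-2, and without CD4 replicate JL027-1 the list also held 2 lower, Dusp2 and Ier2. Among 16 apoptosis genes 4 were higher and 3 lower (4 without CD4 replicate JL027-1), where 13.9% of all genes were higher and 16.1% lower. Birc3, an inhibitor of cell death, was higher by 1.30 and Pmaip1, which encodes Noxa, by 0.95, while the death receptor gene Fas was -0.69. The call of Pmaip1 ended in 5 of the 7 fits that left out 1 library, all but those without CD4 replicate JL027-1 or Treg replicate JL027, and that of Fas without CD4 replicate JL019-2, CD4 replicate JL027-2 or Treg replicate JL027. Bcl2a1d (-1.38) has near-identical copies, and Gapdh, Eno1, Ldha and the Ifit genes have pseudogenes or close relatives, so their reads may be split among them.

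Among the called genes with the lowest p, Ctse and Gdpd3 were lower in Treg at both times. Ctse (ENSMUSG00000004552), the aspartic protease cathepsin E, had 644, 549.6 and 793 in Treg and 19820.3, 19644, 24484 and 21820.4 in CD4 cells, a difference of -5.03 (SE 0.15, limma adjusted p 7.78e-19). Gdpd3 (ENSMUSG00000030703), a lysophospholipase, had 6.97, 3.34 and 6.87 in Treg and 1186, 1449.9, 643 and 950.4 in CD4 cells, a difference of -7.29 (SE 0.34, limma adjusted p 1.28e-14). At day 0 their differences were -4.11 and -7.14. All 5 Treg libraries of the series lay below all 26 other libraries for both genes: Ctse was at most 1067 in Treg and at least 9044 elsewhere. Of the 16741 genes, such a full separation held for 162 that were lower and 164 that were higher in the Treg libraries.

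Among the other called genes with the lowest p, some were higher in Treg before transfer. Sostdc1, a secreted antagonist of BMP and Wnt signals, had 2.91, 6.34 and 8.32 in Treg and 1304, 1932, 1949 and 3083 in CD4 cells, and 113 and 82.6 against 9.34 and 15 at day 0. Its difference turned from 2.92 to -8.26, a change of -11.18 (SE 0.99, limma adjusted p 9.24e-08). Tbc1d4, a regulator of glucose transporter traffic, had 217, 198 and 154 in Treg and 3102, 3178, 4358 and 4351 in CD4 cells, and 5526 and 4915 against 1606 and 1724 at day 0, a change of -5.94 (SE 0.48, limma adjusted p 2.25e-08). Both genes were higher in Treg at day 0 and lower at day 6, and each was called at both days. Klrc1, which encodes the inhibitory receptor NKG2A, had 173, 150.2 and 110.2 in Treg and 7921, 7040.0, 4507 and 4724 in CD4 cells, a difference of -5.36 (SE 0.27, limma adjusted p 4.59e-14). Crtam, a surface receptor of cytotoxic CD4 cells, was -4.05, Fbxo17 -4.33 and Lrrc6 -5.04. Among the higher genes, Wls, which carries Wnt proteins to the cell surface, had 5235, 4438 and 3746 in Treg and 425, 451, 274 and 305 in CD4 cells, a difference of 3.63 (SE 0.24, limma adjusted p 2.27e-11). Itgav, the alpha chain that pairs with the product of Itgb8, was higher by 2.79, the muscle protein gene Neb by 3.33, the urea transporter gene Slc14a1 by 2.88, Cep85 by 2.49 and the leukotriene receptor gene Cysltr2 by 1.89. Legumain, the lysosomal protease encoded by Lgmn, had 1687, 1975 and 2266 in Treg and 197, 198, 404 and 356 in CD4 cells, a difference of 2.84 (SE 0.28, limma adjusted p 5.42e-08).

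Which differences were kept from day 0 and which appeared in the host was asked by the same contrast before transfer, where 651 genes were called (3.89%), 426 higher (2.54%) and 225 lower (1.34%) in Treg, and by a test of the change. Of these, 342 were called at both days, 278 in the same direction (165 higher and 113 lower in Treg) and 64 in opposite directions. Of the 16 identity genes 9 were called higher at both days: Il2ra, Ikzf2, Ikzf4, Ctla4, Tnfrsf18, Izumo1r, Swap70, Plagl1 and Socs2. Lrrc32, Gpr83, Il2rb and Cd5 were called at day 6 and not at day 0, but none of these 4 passed the test of the change, which for Lrrc32 gave 3.71 (SE 1.19, limma adjusted p 0.0675). Of the effector Treg genes 9 of 18 and of the suppression genes 5 of 15 were called higher at both days. Another 3 effector and 5 suppression genes were called at day 0 and not at day 6. The change between days was called lower for 3 effector and 5 suppression genes and higher for 1 suppression gene, against 4.71% of all genes called. The day 0 count rose to 2081 when the model held only the groups compared. It then held 962 higher and 1119 lower, so the balance of directions at day 0 depends on the model.

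The change between days was called for 788 genes (4.71%), 241 with a higher (1.44%) and 547 with a lower difference at day 6 (3.27%). It was called for 10 of 16 cytokines and ligands, and for 14 of 26 cell cycle genes, in each case with a lower Treg minus CD4 difference at day 6. A lower difference does not mean a lower level in Treg: Ifng and Tyms had higher Treg values at day 6 than at day 0, and CD4 values that were higher still. For Il21 the change was -7.18 (SE 0.99, limma adjusted p 7.38e-05), and at day 0 its values were 71.1 and 59.5 in Treg and 58.1 and 32.6 in CD4 cells. Il3 was listed at 0 in all 4 day 0 libraries, and Csf2 did not exceed 6.53 there. Il2 was at 2.97 and 4.65 against 22.5 and 27.7 (day 0, limma adjusted p 0.0646). For Il10 the difference was 5.85 at day 0, where CD4 cells had 7.5 and 1.68, and 2.49 at day 6, with a change of -3.36 (SE 0.77, limma adjusted p 0.00962). Ccdc50 and Eea1 were higher in Treg at day 0 and lower at day 6, and Gem was higher at day 0 and not called at day 6, with changes of -3.63, -3.07 and -3.36. The differences of Ppp1r3b, Acss2, Atp8b4, Cd1d1, Tec and Lgmn moved upwards, by 4.04, 2.96, 2.14, 1.94, 1.72 and 3.17, although Atp8b4, a phospholipid transporter, remained lower in Treg at day 6 (-2.11). The count of changed genes and its balance rested on single libraries. It was 2677 without CD4 replicate JL027-1 (1233 higher and 1444 lower) and 507 without Treg replicate JL019-1 (132 higher and 375 lower).

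**Figure D3:**
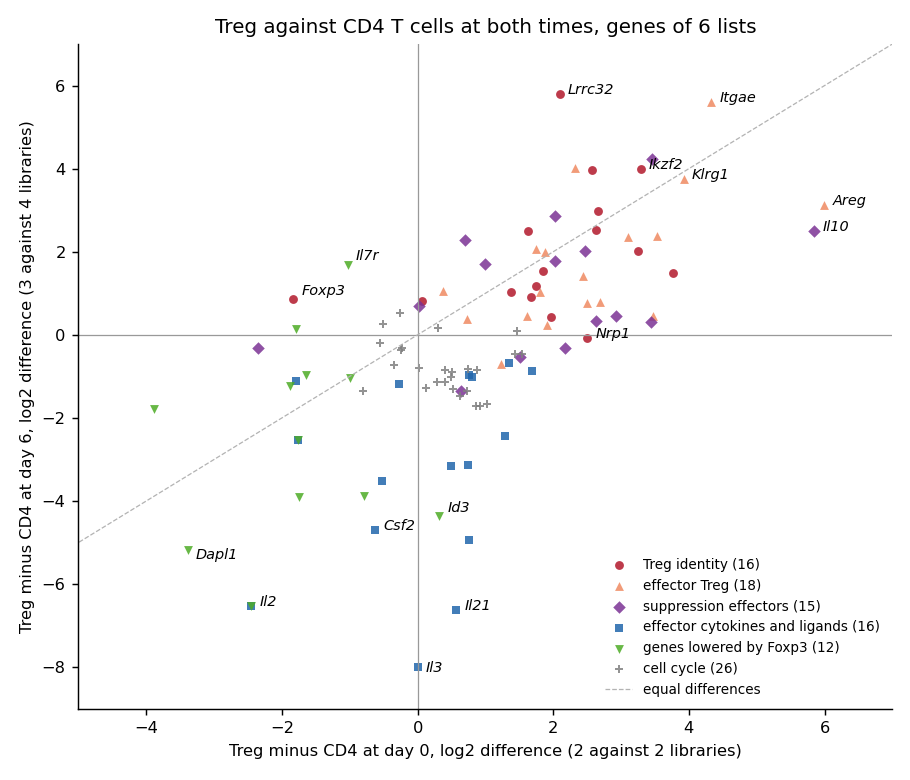
Treg minus CD4 log2 difference at day 0 (horizontal axis) and at day 6 (vertical axis) for the members of 6 gene lists, 1 point per gene. The dashed line marks equal differences. Treg identity genes lie mainly in the upper right, while Il3 and Il21 lie near 0 at day 0 and below -6 at day 6.

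The difference between the populations followed gene length. For each library a slope was fitted over the 15874 genes with a known genomic span, of log2(value + 1) centred gene by gene on log2 span, so its unit is log2 units per doubling. The slope was 0.0573, 0.0386 and 0.0482 in the Treg libraries, a mean of 0.0480 ± 0.00931 (SD, n = 3). In the CD4 libraries it was -0.0986, -0.121, 0.0159 and -0.0689, a mean of -0.0681 ± 0.0599 (SD, n = 4). The groups did not overlap (two-sided exact permutation p 0.0571, the smallest that 3 against 4 libraries can give), and CD4 replicate JL027-1 was nearest to Treg. The 4 CD4 libraries of allogeneic recipients had trends of 0.0195 to 0.0452, near those of Treg. In 4 bins of genes from the shortest to the longest, the median difference was -0.32, -0.03, 0.25 and 0.47. Called genes turned with length, from 189 higher and 952 lower in the shortest bin to 853 higher and 310 lower in the longest. After removal of this trend the medians were 0.01, 0.03, 0.15 and 0.14, and 4718 genes were called, 2102 higher and 2616 lower. Of the 92 named genes called, 86 remained called in the same direction. The calls that ended were those of Plagl1, Il2rb, Cd5, Gata3, Pgam1 and Tec. Centring on medians ended 7, Tnfrsf18, Plagl1, Il2rb, Cd5, Gata3, Pmaip1 and Tec, and quantile normalisation 5, Batf, Eno1, Ldha, Pgam1 and Tec. With the length trend removed, the calls of the identity list became 10 higher and 1 lower, the latter Nrp1, and those of the cytokines 11 lower.

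**Figure D4:**
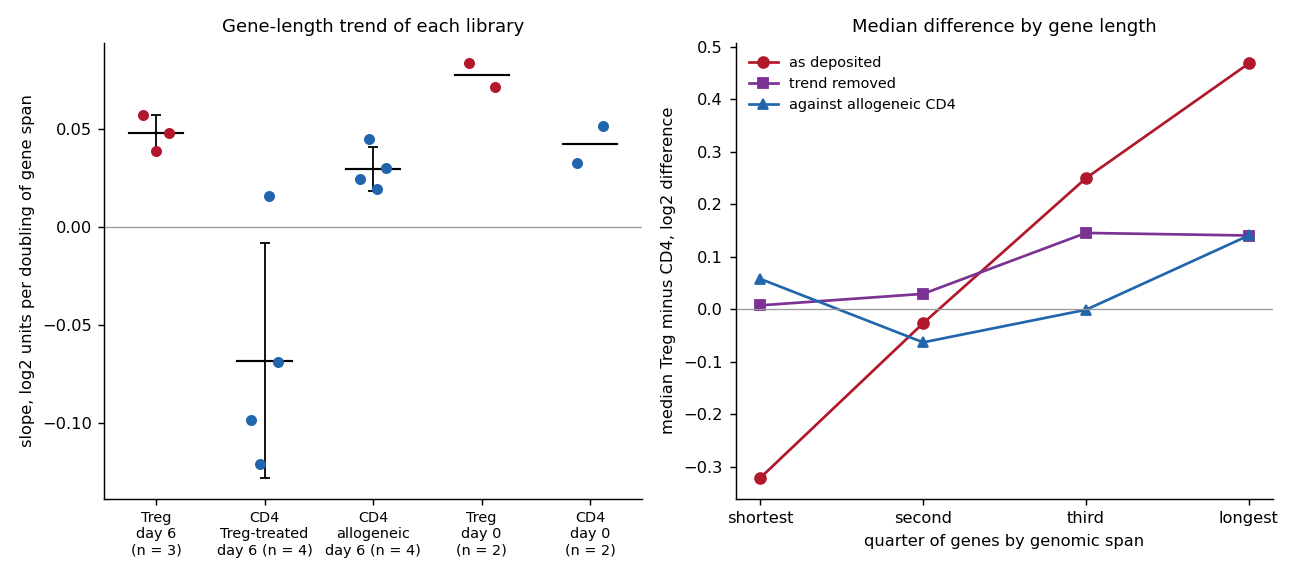
Left: slope of each library on gene span, in log2 units per doubling, with the mean as a bar and the SD as an error bar for groups of 3 or 4. Right: median log2 difference between Treg and CD4 cells by bin of genes ordered by genomic span, as deposited, with the length trend removed, and against CD4 cells of allogeneic recipients. The line of deposited values climbs from -0.32 to 0.47, and the other lines stay between -0.06 and 0.15.

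Against CD4 cells of allogeneic recipients without Treg, whose length trends were closer to those of Treg, 1965 genes were called (11.7%), 976 higher (5.83%) and 989 lower (5.91%). Both comparisons share the 3 Treg libraries. Of the calls, 1356 were common to both (27.0% of the first and 69.0% of the second), and 1353 of these had the same direction. The identity list had 12 higher and none lower, with a median of 1.98, the effector Treg list 11 higher and none lower (1.75), the suppression list 8 higher and 1 lower (1.36), the lower one now Prf1 (-1.01) in place of Lgals1 (-0.38, not called), and the cytokines 11 lower and none higher (-2.30). Lrrc32 differed by 4.43, Il2 by -3.99, Il21 by -5.40 and Il3 by -5.13 in this comparison. Interferon genes were again higher, in 13 of 24 cases. Fewer cell cycle genes were called, 9 lower with a median of -0.66, and the glycolysis list held 1 call, lower, with a median of -0.20. Of the 92 named calls 69 passed the test against allogeneic cells in the same direction. Another 17 kept their sign without passing: Cd5, Prdm1, Lgals1, Il4ra, Gata3, Il7r, Ccr10, Dusp5, Tyms, Slc16a3, Bnip3, Ldha, Pgam1, Pmaip1, Bcl2a1d, Fas and S100a8. Prdm1 went to 0.69 and Tyms to -0.67, and the other 6 changed sign, Il2rb, Batf, Slc2a3, Acss2 and Eea1 without passing and Gcg with a call (4.29). The cytokine gene Lta, called lower against CD4 cells of Treg-treated recipients (-1.02), also turned (0.07, not called). Among genes called in neither comparison, signs also turned for several. These include Cd4, Gem, Il4, Tnfsf11, Pdcd1, Stat5a, Mki67, Rora, Eomes and Runx3, and the markers Adgre1 and Klra8. Foxp3, also called in neither, differed by -0.61. It had 337 to 579 in the allogeneic CD4 libraries, all above the 265 to 293 of the Treg libraries.

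RNA of other cell types moved with the comparison. Of 10 myeloid markers 6 were lower and 1 was higher in Treg, and their summed normalised count was 2173 to 7443 in Treg and 24407 to 89637 in CD4 libraries. Most of it was from the neutrophil genes S100a8, with 3114, 376 and 880.4 in Treg and 44215, 24029, 12431 and 14715 in CD4 cells, and S100a9. Lyz2 was also lower, while the macrophage markers Csf1r and Adgre1 were below 30 in all 7 libraries. Gcg, which encodes proglucagon, had 68.8, 115 and 436 in Treg and 802, 945, 573 and 1050.4 in CD4 cells (not called without Treg replicate JL019-1), against 3.29 to 11.8 in CD4 cells of allogeneic recipients. Of 4 NK markers 2 were lower, with sums of 50.6 to 90.0 in Treg and 157 to 338 in CD4 libraries, and Klra8 was listed at 0 in 5 of the 7 libraries. B cell sums were 500.1 to 748 and 152 to 310.3, with 1 of 5 markers, Cd79b, higher in Treg. Hemoglobin and other erythroid genes were high in the JL027 libraries of both populations, with sums of 1682 to 50373 in Treg and 5456 to 62486 in CD4 cells, and none was called. Y-linked genes were also high in the JL027 libraries of day 6 and low in those of JL019. At day 0 they were high in the JL027 Treg and low in the JL027 CD4 library. The part of these differences in the results above was not tested.

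The T-cell receptor tables of the same libraries gave a second readout, not used to choose the libraries. A clonotype was a V gene, a J gene and a CDR3 amino acid sequence. At an equal depth of 8194 reads of the beta chain (TRB), Treg libraries held 2322, 2247 and 2010.0 clonotypes and CD4 libraries 2476, 2719, 2509.6 and 2604. The means were 2193 ± 163 (SD, n = 3) and 2577 ± 109 (SD, n = 4), with no overlap (two-sided exact permutation p 0.0571, the smallest possible). The alpha chain (TRA) gave 1580 ± 121 (SD, n = 3) and 2372 ± 232 (SD, n = 4) clonotypes at 12500 reads, again without overlap and with an exact permutation p of 0.0571. Clonality, which is 0 when all clonotypes are equally frequent and 1 for a single clone, averaged 0.151 ± 0.0121 (SD, n = 3) for TRB of Treg and 0.164 ± 0.0107 (SD, n = 4) for TRB of CD4 cells (two-sided exact permutation p 0.114). The groups overlapped at equal depth, but not over clonotypes with at least 2 reads (Treg minus CD4 -0.0349) or over all reads (-0.0417), each with an exact permutation p of 0.0571. For TRA the order was the opposite, 0.286 ± 0.0103 (SD, n = 3) for Treg against 0.188 ± 0.0324 (SD, n = 4) for CD4 cells (exact permutation p 0.0571). The 10 largest TRA clonotypes took 35.2% to 40.7% of reads in Treg and 14.8% to 27.3% in CD4 libraries. Adjusted over these 4 tests by Benjamini-Hochberg, the permutation p-values were 0.0762 for 3 of them and 0.114 for TRB clonality. PCR reads are not independent molecules.

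**Figure D5:**
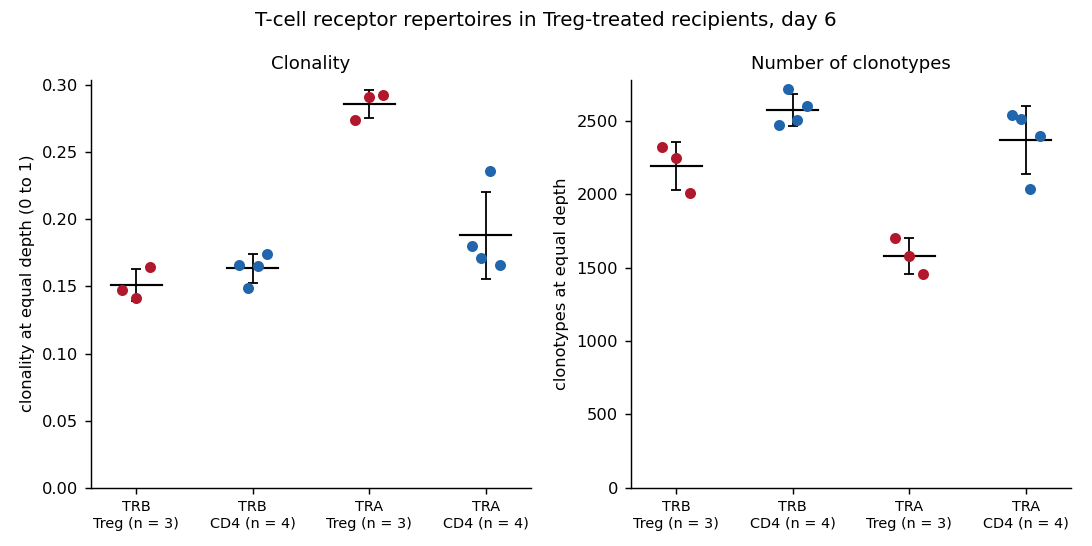
Clonality (left) and number of clonotypes (right) at equal depth for the beta and alpha chains, 1 point per library, with the mean as a bar and the SD as an error bar. Treg libraries have fewer clonotypes for both chains, and a higher clonality for the alpha chain alone.

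Treg and CD4 cells shared few clonotypes. Between the libraries numbered JL019-1 there were 57 shared TRB clonotypes, 1.60% of those of Treg and 1.01% of those of CD4 cells, with a Morisita-Horn index, which runs from 0 to 1 for identical repertoires, of 0.00127. Those numbered JL019-2 shared 56, 2.49% and 0.869%, with an index of 0.00604. Whether a shared number marks a shared recipient is not given. The 10 other pairs of a Treg and a CD4 library had 22 to 58 shared clonotypes and indices of 0.000342 to 0.00435. The counts of the same-numbered pairs lay inside this range, and the index of JL019-2 lay above it. The share of Treg TRB reads in clonotypes shared with CD4 cells was 4.30% and 5.72% in the same-numbered pairs and 1.59% to 4.27% in the other pairs. For TRA, with 63 and 66 shared clonotypes in the same-numbered pairs and 42 to 71 otherwise, the share was 21.4% and 15.2% against 1.73% to 7.86%. With clonotypes of at least 2 reads the TRB shares (3.17% and 1.85%) lay inside the range of the other pairs (0.795% to 3.47%), and of the TRA shares (4.54% and 9.82%) that of JL019-2 lay above it (1.57% to 6.40%). These shares were not tested. Within a population, the Treg libraries JL019-1 and JL019-2 had an index of 0.0223, and the 2 pairs with Treg replicate JL027 had 0.00197 and 0.000809, inside the range between Treg and CD4 cells. The index was 0.00222 to 0.0274 for pairs of CD4 libraries.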

How the data were processed

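RNA of sorted mouse T cells was measured in 31 libraries made from full-length cDNA (SMARTer v4, Nextera XT), and nested PCR on this cDNA gave the T-cell receptor libraries, as the labels' protocols state. The authors deposited 1 RNA signal table of normalised counts, in which each gene's base mean equals the mean of its 31 library values to a relative 5.86e-07, per the file headers those of a DESeq2 results table. FastQC 0.11.7, kallisto and DESeq2 are named with GRCm38 and mm10 in the submitters' processing notes. That table also has a log2 fold change, a test score and p-values by the authors, with no groups named, and these were left aside. At most 2.51% of a library's values were whole multiples of a common step (tolerance 0.01), so reads were not recovered. The receptor tables, as deposited by the authors, give each clonotype its read count and its percent of reads.

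Values were tested as log2(value + 1) for 16741 genes with a mean of at least 1, which removed 0 genes, by limma 3.58.1 in R 4.3.3 with group means over all 31 libraries, trend and robust variance moderation and Benjamini-Hochberg adjustment at 0.05. The linear model replaced a count model because the table holds no whole counts. The fit was tested on simulated data. Gene spans, for 94.8% of genes, and promoters came from RefSeq, GRCm38. Receptor measures at equal depth are means of 20 random draws, compared by exact permutation with SciPy 1.17.1 in Python 3.11.15.

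Members and gene lists were chosen with earlier results of these data known. Named genes were the lineage coreceptors, all Treg identity genes, up to 3 called in each direction per list, and over all genes those with the lowest p in each direction and for the change between days. A further 18 genes were chosen after their values were seen, and a few genes that the rule picks are not reported here. Deviations of the same-numbered Treg and CD4 libraries had r of -0.0682 (JL019-1) and -0.0570 (JL019-2), and the numbers come from the titles. Alternatives covered the pseudocount, filter, scaling, gene length, block, comparator and each library left out.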

Additional observations from a re-analysis of the deposited data

Results flagged for a closer look

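In 6 of the 99 named genes 1 CD4 library of Treg-treated recipients lay far from the other 3 by Dixon's test, and in all 6 it was replicate JL027-1, above the others. Its normalised counts were 17587 for Cd4, 1795 for Fgl2, 2731 for Il4ra, 39096 for Itgb1, 1445 for Cd274 and 7569 for Ccr9. Chance marks about 1 in 20 groups of this size, and genes of 1 library are not independent.

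For 42 named genes the difference between Treg and CD4 cells changed from day 0 to day 6 by limma's test of the change, 788 genes (4.71%) passing over all genes. The values that follow are the Treg minus CD4 difference at day 6 less that at day 0, on the log2 scale, and do not say whether Treg or CD4 levels moved. Among cytokines and ligands the changes were Il3 -8.00, Il21 -7.18, Csf2 -4.08, Il2 -4.08, Ifng -3.71 and Tnfsf14 -3.00. Genes of the cell cycle had Tyms -2.58 and Ccnb2 -2.09, apoptosis genes Bcl2a1d -2.98, Pmaip1 -2.47, Bcl2 -1.85 and Fas -1.51, and the homing genes Ccr10 -3.83 and Itgb1 -2.48. Genes of the Treg lists had Il10 -3.36, Nrp1 -2.59, Lgals1 -1.99 and Batf -1.94. The other lower differences were Sostdc1 -11.18, S100a8 -7.11, Tbc1d4 -5.94, Id3 -4.68, Lrrc6 -4.47, Ccdc50 -3.63, Gem -3.36, Klrc1 -3.31, St8sia1 -3.09, Eea1 -3.07, Il18r1 -1.89 and Ctse -0.91. Higher differences were Oas2 5.11, Ppp1r3b 4.04, Lgmn 3.17, Acss2 2.96, Il7r 2.72, Slc14a1 2.41, Atp8b4 2.14, Ccr9 2.07, Cd1d1 1.94, Wls 1.86, Cep85 1.79 and Tec 1.72, among which Oas2 is interferon-induced and Il7r, Ccr9 and Lgmn are described above.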

How the results depend on the processing

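The count of genes called between Treg and CD4 cells at day 6 (5016) was 3312 with a log2 difference of at least 1, 8705 with array weights (whose estimation stopped before convergence), 1965 against allogeneic CD4 cells and 211 in JL027 libraries alone, and 3119 to 6377 with 1 library left out. The lowest was without Treg replicate JL019-1 and the highest without CD4 replicate JL027-1. The paired fits gave 5062 with the prefix as a block and 5893 with prefix, treatment and number together as a block (5515 with the length trend removed too). The latter block changed no call among the 92 named genes called, and the prefix block ended those of Plagl1 and Il2rb. The day 0 count was 2081 with only the groups compared in the model. The count for the change between days was 2061 with only those groups, 1285 after quantile normalisation and 507 to 2677 with 1 library left out.

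With libraries centred on medians the list medians became 1.30 (Treg identity), 1.01 (effector Treg), 0.47 (suppression), -2.38 (lowered by Foxp3), 0.12 (homing), 0.81 (IL-2 receptor), -1.06 (cell cycle), 0.50 (interferon), 0.12 (glycolysis) and 0.11 (apoptosis). With the length trend removed they were 1.33 (identity), -2.30 (lowered by Foxp3), 0.82 (IL-2 receptor) and 0.17 (apoptosis), and after quantile normalisation 0.59 (homing) and 0.63 (glycolysis). Against allogeneic CD4 cells they were 1.98 (identity), 1.75 (effector), 1.36 (suppression), -2.30 (cytokines), -2.43 (lowered by Foxp3), 0.53 (IL-2 receptor), -0.66 (cell cycle), 1.12 (interferon) and 0.069 (apoptosis), and reversed to -0.37 (helper factors), -0.13 (homing), -0.11 (T-cell receptor response) and -0.20 (glycolysis). With 1 library left out the medians ran from 0.55 to 0.82 (suppression), -2.25 to -1.97 (lowered by Foxp3) and 0.67 to 0.96 (interferon).

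Among the 99 named genes signs reversed against allogeneic CD4 cells for Foxp3 (-0.61), Cd4 (-0.39), Il2rb (-0.046), Batf (0.14), Slc2a3 (-0.021), Acss2 (-0.048), Eea1 (0.16), Gem (0.51) and Gcg (4.29). Cd8b1 reversed with centring (-0.088), with quantile normalisation (-0.024) and without CD4 replicate JL027-1 (-0.096), and Nrp1 without that library (0.036). With 1 library left out Cd8b1 ranged from -0.096 to 0.25 and Nrp1 from -0.17 to 0.036. Gem reversed with the length trend removed (0.067), without CD4 replicate JL019-2 (0.070) and without Treg replicate JL027 (0.16), with a range of -0.11 to 0.16 over libraries left out. Clonality reversed with TRA in place of TRB, to a difference of 0.0976. The causes were not tested. The TRB difference, -0.0125 with overlapping groups, was -0.0349 for clonotypes with at least 2 reads and -0.0417 for all reads, both without overlap (exact permutation p 0.0571). Leaving out 1 library gave clonality differences of -0.0193 to -0.00763 and length trend differences of 0.0985 to 0.144.

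RNA depth is unknown, which limits what low values show. A fit on another gene length was not run. Omitting the filter left the same genes, since none was below it.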
